A study of Mus musculus with 8 samples.

Results

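The unfolded protein response and the integrated stress response were followed through 31 genes in the crypts of mouse jejunum. The genes were a list of known pathway members, found by symbol among the 23951 gene symbols of the expression table, and all 31 were detected well enough to be tested. By role they were 14 chaperones and folding enzymes of the endoplasmic reticulum (Hspa5, Hsp90b1, Hyou1, Calr, Canx, Pdia3, Pdia4, Pdia6, Dnajb9, Dnajb11, Dnajc3, Sdf2l1, Creld2 and Manf), 5 genes of ER-associated degradation (Herpud1, Edem1, Syvn1, Sel1l and Derl3), 5 sensors and factors (Ern1, Ern2, Eif2ak3, Atf6 and Xbp1) and 7 genes of the Atf4 arm (Atf4, Ddit3, Trib3, Asns, Chac1, Sesn2 and Ppp1r15a).

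Proteins bound for secretion fold in the endoplasmic reticulum, and when unfolded protein gathers there the sensors Ire1 (encoded by Ern1 and Ern2), Perk (Eif2ak3) and Atf6 respond. Ire1 splices the messenger RNA of Xbp1, a transcription factor that raises chaperones and degradation genes, and Perk is also an entry to the integrated stress response, in which phosphorylation of the initiation factor eIF2 favours the translation of Atf4. Atf4 then induces genes of amino acid supply and stress. In the gut this machinery is best known from the secretory goblet and Paneth cells, and Ern2 is the form of Ire1 found mainly in epithelia that make mucus. The values are FPKM, a level of messenger RNA scaled for transcript length and sequencing depth, which measures neither the splicing of Xbp1 nor the translation of Atf4 nor the activity of a sensor.

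Every mouse carried the conditional activating allele BRAF-V600E f/+ and Villin-CreER(T2), a recombinase expressed from the Villin promoter, and so in the intestinal epithelium and not in the other cells of the gut wall. Tamoxifen, which switches the recombinase on, was injected on 4 consecutive days, and crypts were taken 1 day later. The group BRAF (3 libraries) had no further floxed gene, SMAD4KO_Braf (3 libraries) also carried Smad4 f/f, and CDX2KO_Braf (2 libraries) also carried Cdx2 f/f. All 3 groups thus share the activated kinase, and the comparisons ask what a further floxed gene adds to it. The labels give neither age nor sex, and they do not say that the libraries came from separate animals. The p-values below thus measure the spread between libraries, which may be technical in part. The sex-linked transcripts Ddx3y and Xist, given below, set library 0 of BRAF and of SMAD4KO_Braf apart from the other libraries of their groups. Those groups therefore did not each come from a single animal. Libraries are called by the number of their column, from 0.

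No counts were used here, so the absolute depth is unknown. Low values put the relative depth of the 8 libraries between 0.706 and 1.45, with BRAF library 0 set to 1. Smad4 stood at 7.66 to 10.7 FPKM in SMAD4KO_Braf and at 35.3 to 47.0 in the other 5 libraries. Cdx2 went against the label, with 155 and 121 FPKM in the CDX2KO_Braf-labelled libraries against 64.2 to 93.1 elsewhere, a difference from BRAF of 0.86 ± 0.18 on the log2 scale (SE; limma, adjusted p = 0.0213). That call ended without BRAF library 0 (0.05) or 2 (0.0505) or without CDX2KO_Braf library 0 (0.146) or 1 (0.0616). FPKM of the whole gene does not single out the floxed part, so this does not check the deletion, and each direction given for those 2 libraries rests on their label. Braf lay between 3.66 and 4.88 FPKM everywhere. Epcam, an epithelial marker, stood at 540 to 992 FPKM, and 5 endothelial markers together summed to at most 0.931. Markers of other cells differed between libraries. Those of T and intraepithelial lymphocytes summed to 15.4 to 994 FPKM, myeloid markers to 16.4 to 88.8 and mesenchymal markers to 4.52 to 113. Each of these sums was highest in BRAF library 1.

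Differences below are differences of mean log2(FPKM + 1), ± the standard error, with a p-value from limma adjusted over the 12084 genes tested and a threshold of 0.05. At low FPKM this scale makes a change look smaller than it is.

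Against BRAF, 2 of the 31 genes rose in the CDX2KO_Braf-labelled libraries, namely Ern2 and Xbp1, and none of them fell. That is 6.45% of the list, beside 14.1% of all genes tested in the same comparison. In SMAD4KO_Braf 0 of the 31 genes passed, against 0.0745% of all genes. Of the 31 genes 1 had an unadjusted p under 0.05, beside 15.1% of all genes. The median difference over the 31 genes was -0.32 in SMAD4KO_Braf and -0.09 in the CDX2KO_Braf-labelled libraries, and over all genes tested it was -0.01 and 0.02. Both comparisons share the BRAF libraries. The 31 differences from BRAF are plotted below by arm.

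**Figure D1:**
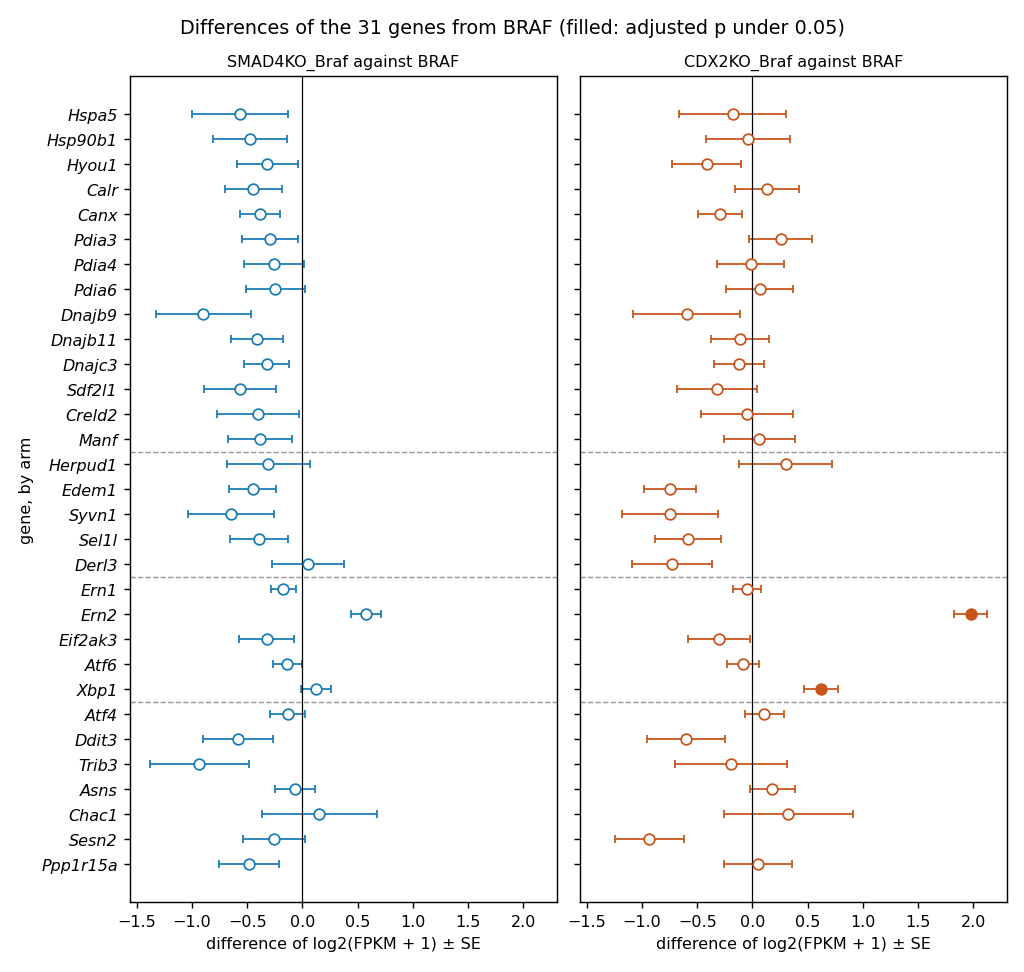
Difference of each of the 31 genes from BRAF on the log2(FPKM + 1) scale (horizontal axis, bars are the SE), in SMAD4KO_Braf on the left and in the CDX2KO_Braf-labelled libraries on the right. Filled points passed at an adjusted p under 0.05, which only Ern2 and Xbp1 did, both on the right, and on the left 27 of 31 points lie below 0.

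Among the sensors, Ern2, the epithelial form of Ire1, had the largest rise of the 31 genes. Ern2 measured 15.6, 13.6 and 13.7 FPKM in the BRAF group, listed here and below in the order of the library numbers, 24.9, 22.3 and 18.6 in SMAD4KO_Braf, and 53.8 and 64.7 in the CDX2KO_Braf-labelled libraries. The 3 groups did not overlap, with BRAF lowest, SMAD4KO_Braf in between and the libraries labelled CDX2KO_Braf highest. The group means were 14.3 ± 1.12 (SD, n = 3), 21.9 ± 3.19 (n = 3) and 59.2 ± 7.69 (n = 2) FPKM, so the labelled libraries were 4.15-fold above BRAF in mean FPKM. On the log2 scale this rise was 1.98 ± 0.15 (adjusted p = 0.000653, and 0.000224 to 0.0224 over 19 alternative settings). Directly against SMAD4KO_Braf it was 1.40 ± 0.15 (adjusted p = 0.00255). In SMAD4KO_Braf against BRAF the 0.58 ± 0.14 of Ern2 did not pass (adjusted p = 0.185, and 0.0444 with library weights).

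Ern1, the form of Ire1 made in most tissues, gave a different picture. Its FPKM was 8.07, 9.87 and 9.08 in BRAF, 8.36, 7.39 and 7.78 in SMAD4KO_Braf and 9.31 and 8.01 in the CDX2KO_Braf-labelled libraries, and these ranges overlapped. Its difference from BRAF was -0.18 ± 0.11 in SMAD4KO_Braf (adjusted p = 0.472) and -0.05 ± 0.13 in the CDX2KO_Braf-labelled libraries (0.820). The ratio of the FPKM of Ern2 to that of Ern1 was therefore 1.38 to 1.93 in BRAF, 2.38 to 3.02 in SMAD4KO_Braf, and 5.78 and 8.07 in the labelled libraries.

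Xbp1, the factor whose messenger RNA Ire1 splices, was the other gene that rose. It had 125, 113 and 136 FPKM in BRAF, 155, 130.0 and 123 in SMAD4KO_Braf and 205 and 178 in the CDX2KO_Braf-labelled libraries. Both labelled libraries lay above all 6 others, while SMAD4KO_Braf overlapped BRAF. The rise against BRAF was 0.62 ± 0.15 (adjusted p = 0.0377, and 0.0102 to 0.24 over the alternatives), 1.54-fold in mean FPKM. This call was near the threshold. It ended without any 1 of BRAF library 0 (0.0844), 1 (0.0907) or 2 (0.0658), SMAD4KO_Braf library 1 (0.0576) or 2 (0.054) and CDX2KO_Braf library 0 (0.223) or 1 (0.116). Against SMAD4KO_Braf the difference of Xbp1 was 0.50 ± 0.15 (adjusted p = 0.0784), and SMAD4KO_Braf against BRAF stood at 0.12 ± 0.14 (0.668).

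Eif2ak3 and Atf6 did not pass in any comparison. Eif2ak3, which encodes Perk, ranged from 8.38 FPKM in SMAD4KO_Braf library 2 to 19.2 in BRAF library 0, and its differences from BRAF were -0.32 ± 0.25 and -0.31 ± 0.28 (adjusted p = 0.54 and 0.506). Atf6, the sensor that is cut in the Golgi to release a transcription factor, varied little, from 10.02 to 13.8 FPKM over the 8 libraries. Its differences from BRAF were -0.14 ± 0.13 in SMAD4KO_Braf and -0.09 ± 0.15 in the CDX2KO_Braf-labelled libraries (0.615 and 0.723).

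**Figure D2:**
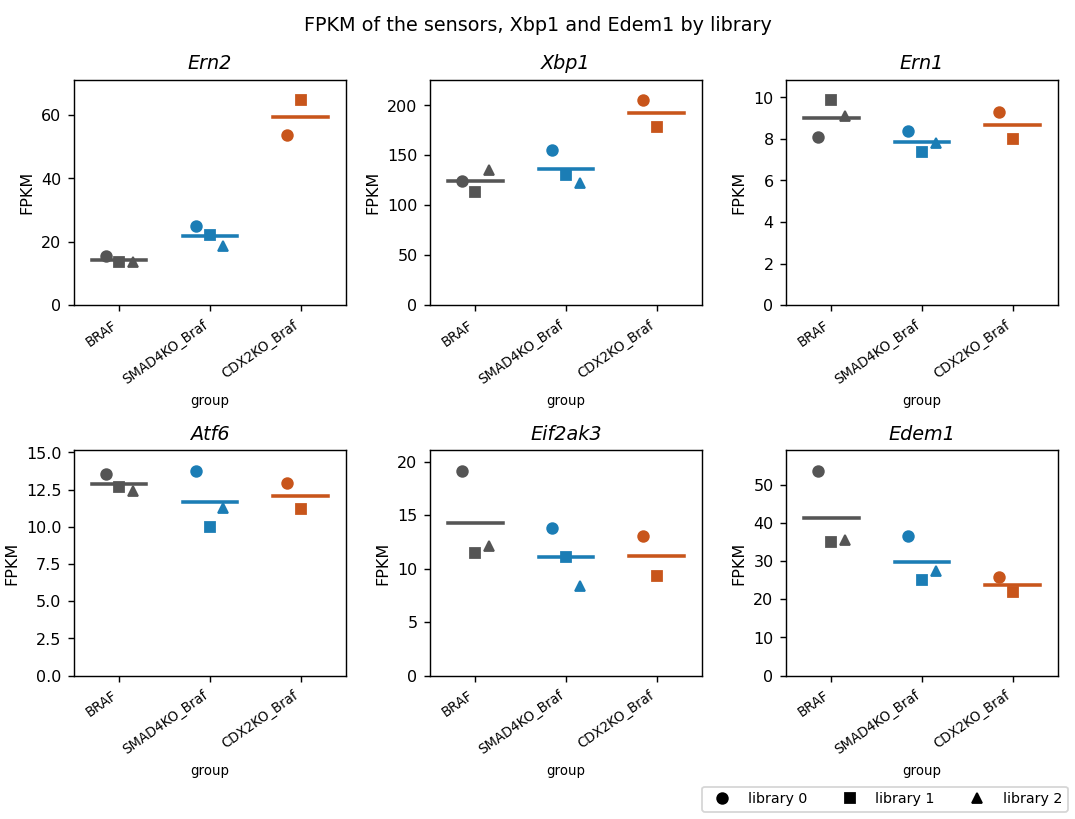
FPKM (vertical axes, from 0) of the 4 sensor genes, of Xbp1 and of the degradation gene Edem1 in each library, with a line at each group's mean. Ern2 climbs from 13.6 to 15.6 in BRAF through 18.6 to 24.9 in SMAD4KO_Braf to 53.8 and 64.7 in the CDX2KO_Braf-labelled libraries, while the levels of Ern1 overlap.

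Because Ern2 is known from mucus cells, the goblet markers are given beside it. Of 10 goblet markers, 1 rose in the CDX2KO_Braf-labelled libraries against BRAF, Galnt12, which encodes a mucin glycosyltransferase (1.18 ± 0.19, adjusted p = 0.0091, ending without CDX2KO_Braf library 0 at 0.0538 or 1 at 0.0832), and the list's median difference was 0.03. The summed FPKM of the 10 markers was 5760 to 7125 in BRAF, 5050 to 10170 in SMAD4KO_Braf, and 8767 and 7340 in the labelled libraries. By FPKM 4 of the 10 lay entirely above BRAF in the labelled libraries and 1 entirely below, beside 48.4% of all genes in either direction. Those above were Galnt12, Tff3 (1060 to 1251 in BRAF, 2772 and 2544 in the labelled libraries), Agr2 (795 to 914, 1547 and 1137) and Spdef (13.9 to 18.1, 39.9 and 25.6). The 1 below was Muc2, the main intestinal mucin, at 208 to 249 FPKM in BRAF and at 151 and 121 in the labelled libraries. Paneth cell markers, those of the other secretory crypt cell, summed to 8958 to 17906 FPKM in BRAF, to 15594 to 26364 in SMAD4KO_Braf and to 6880 and 5226 in the labelled libraries, where 2 of 9 tested markers fell. That count was 0 without BRAF library 0 or 2 or CDX2KO_Braf library 1, and 1 without SMAD4KO_Braf library 1. Enterocyte markers were lower too, with 10 of 10 below 0, a median difference of -2.14 and 6 that fell (60% of them, beside 14.1% of all genes), and sums of 8811 and 3927 FPKM against 13860 to 29899 in BRAF. Of the enterocyte markers 3 fell without BRAF library 0 or 2 or CDX2KO_Braf library 0, and 2 without CDX2KO_Braf library 1. Markers of T and intraepithelial lymphocytes had 10 of 10 below 0 with a median of -1.88, and none passed or had an unadjusted p under 0.05, with 0 calls also under all 19 alternatives. Over all genes 47.4% lay below 0 in this comparison and 28.8% had an unadjusted p under 0.05. Gastric gland markers also moved with these 2 libraries. Summed over 10 markers they reached 2396 and 8001 FPKM there and at most 10.1 elsewhere, with all 4 tested markers rising, among them Tff2, a mucus cell peptide, at 1256 and 2318 FPKM. The gastric markers Tff1 and Atp4b were at or near 0 in all 8 libraries. The part of other cell types in the rise of Ern2 was not tested, and in whole crypts a change in cell numbers cannot be told apart from a change in RNA per cell.

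The chaperones and folding enzymes were the most abundant arm by summed FPKM, and none of them passed in any comparison. Calr, a lectin chaperone of glycoproteins, Hspa5, the Hsp70 of the endoplasmic reticulum also called BiP, Hsp90b1, its Hsp90, and Pdia3, a disulfide isomerase, had the highest mean levels per length over the 8 libraries, at 567, 550.4, 430 and 419 FPKM. Together they made up 64.7% to 70.8% of the arm's summed FPKM in each library. The lowest of the 14 was Dnajb9, a co-chaperone of BiP, at 24.6.

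Hspa5 itself had 973, 394 and 600.2 FPKM in BRAF, 697, 345 and 293 in SMAD4KO_Braf, and 650.0 and 450.4 in the CDX2KO_Braf-labelled libraries. BRAF library 0 was the highest of the 8, and the ranges of all 3 groups overlapped. Its difference from BRAF was -0.57 ± 0.43 in SMAD4KO_Braf (adjusted p = 0.537) and -0.18 ± 0.48 in the labelled libraries (0.832), and the second was 0.15 without BRAF library 0 and 0.09 without CDX2KO_Braf library 1.

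Hsp90b1 had 620.0, 375 and 444 FPKM in BRAF, 562, 267 and 256 in SMAD4KO_Braf, and 481 and 432 in the CDX2KO_Braf-labelled libraries. Calr had 740, 507 and 589 in BRAF, 629, 384 and 362 in SMAD4KO_Braf, and 689 and 634 in the labelled libraries, which put both of those above every SMAD4KO_Braf library. Against SMAD4KO_Braf the difference of Calr was 0.57 ± 0.29 (adjusted p = 0.241). Canx, the membrane-bound partner of Calr, had 244, 203 and 222 FPKM in BRAF, 215, 149 and 154 in SMAD4KO_Braf and 199 and 164 in the CDX2KO_Braf-labelled libraries. Canx was the only chaperone whose 2 labelled libraries lay below all BRAF libraries, and its difference there was -0.30 ± 0.20 (adjusted p = 0.368).

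In SMAD4KO_Braf all 14 chaperones had a difference below 0, with a median of -0.40 and a range from -0.90 (Dnajb9) to -0.25 (Pdia6). Among all genes tested 51.8% lay below 0 in this comparison. Heat shock genes of the cytosol had 11 of 11 tested below 0, with a median of -0.38. Of 20 other folding enzymes 15 were below 0, with a median of -0.04. For none of the 14 did the SMAD4KO_Braf libraries lie apart from the BRAF libraries, which 19.3% of all genes did in either direction. The lowest adjusted p of the arm was 0.359, for Canx. Dnajb9 had 49.7, 18.1 and 34.1 FPKM in BRAF and 23.3, 13.8 and 13.6 in SMAD4KO_Braf. Over the alternatives the arm's median stayed below 0 but ran from -0.66, without SMAD4KO_Braf library 0, to -0.21 with quantile normalization, and it was -0.62 with library weights, -0.23 without BRAF library 0 and -0.25 without SMAD4KO_Braf library 2. Enterocyte markers moved the same way, with 10 of 10 below 0, a median of -1.25 and 0 that passed. Of these markers 6 had an unadjusted p under 0.05, beside 15.1% of all genes. Their summed FPKM was 13860 to 29899 in BRAF and 7005 to 20705 in SMAD4KO_Braf. Paneth markers went the other way, with 8 of 9 tested above 0 and a median of 0.83. Goblet markers had 6 of 10 above 0 and a median of 0.05, and no marker of either list passed. The part of these cells in the chaperone values was not tested.

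In the libraries labelled CDX2KO_Braf the chaperones lay near BRAF, with 4 above 0, 10 below, a median of -0.08 and a range from -0.60 to 0.26. Pdia3 stood highest at 0.26 ± 0.28 (adjusted p = 0.584), with 499, 358 and 420.0 FPKM in BRAF and 531 and 478 in the labelled libraries. Leaving out BRAF library 0 moved that median to 0.16 and leaving out BRAF library 1 to -0.25, and it was 0.07 without CDX2KO_Braf library 1 and -0.27 without CDX2KO_Braf library 0, so its sign depended on single libraries, and with a term for Y-linked transcripts it was 0.19. The remaining chaperones varied by 1.69-fold (Dnajc3, which restrains Perk) to 2.68-fold (Creld2, a secreted stress protein) between their lowest and highest library.

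The promoters of these genes are shown because several of the members carry the same published element. The ER stress response element, to which Atf6 and Xbp1 are known to bind together with NF-Y, is written CCAAT, then 9 bases of any kind, then CCACG. It was searched on both strands from 250 bases before to 50 after the start of the gene in RefSeq promoters of GRCm38.p6, a newer build than the mm9 of the expression table. Of the 31 genes 27 were in that table, and the other 4 are Hyou1, Manf, Ern2 and Atf6. The element was found in 7 of 12 chaperones (Hspa5, Hsp90b1, Calr, Canx, Pdia6, Dnajc3 and Creld2), in 2 of 5 degradation genes (Syvn1 and Derl3), in 0 of 3 sensors and factors and in 0 of 7 genes of the Atf4 arm, and in 0.119% of all 32851 promoters. Capitals mark the element in the windows below, which read in the direction of the gene, and an element on the opposite strand appears as CGTGG, 9 bases, ATTGG.
Hspa5, chr2:34771995-34772073, plus strand, element at -65 to -47: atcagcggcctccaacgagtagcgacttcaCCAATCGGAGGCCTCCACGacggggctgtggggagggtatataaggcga
Hsp90b1, chr10:86705608-86705686, minus strand, element at -212 to -194: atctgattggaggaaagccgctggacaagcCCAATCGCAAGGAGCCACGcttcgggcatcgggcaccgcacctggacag
Hsp90b1, chr10:86705503-86705581, minus strand, opposite element at -107 to -89: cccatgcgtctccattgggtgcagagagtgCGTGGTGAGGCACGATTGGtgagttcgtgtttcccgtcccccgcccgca
Calr, chr8:84847045-84847123, minus strand, opposite element at -162 to -144: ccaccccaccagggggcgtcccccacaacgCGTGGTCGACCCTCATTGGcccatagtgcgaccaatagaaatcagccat
Canx, chr11:50325770-50325848, minus strand, element at -145 to -127: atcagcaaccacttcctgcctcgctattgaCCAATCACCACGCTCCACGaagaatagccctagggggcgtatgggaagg
Syvn1, chr19:6046502-6046575, plus strand, element at -44 to -26: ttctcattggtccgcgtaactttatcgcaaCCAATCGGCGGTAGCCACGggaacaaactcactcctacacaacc
Derl3, chr10:75893212-75893290, plus strand, opposite element at -156 to -138: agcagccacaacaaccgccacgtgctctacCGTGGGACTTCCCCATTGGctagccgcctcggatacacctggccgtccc

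Its shorter part CCACG, which lies inside every full element, was found in 11 of 12 chaperones, 5 of 5 degradation genes, 1 of 3 sensors and factors and 5 of 7 genes of the Atf4 arm, and in 32.8% of all promoters. The unfolded protein response element TGACGTGG was in 0 of the 27 promoters and in 0.676% of all. The amino acid response element of Atf4 target genes, searched as TGATGNAA, was in 3 of 7 genes of the Atf4 arm (Trib3, Asns and Chac1), in Herpud1 and in 3.97% of all promoters. These are matches of letters, not measured binding. The matches upstream of the start in Asns and Chac1 are shown, with the element in capitals.
Asns, chr6:7693210-7693262, minus strand, element at -23 to -16: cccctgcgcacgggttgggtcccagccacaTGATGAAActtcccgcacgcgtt
Chac1, chr2:119351019-119351086, plus strand, opposite element at -193 to -186: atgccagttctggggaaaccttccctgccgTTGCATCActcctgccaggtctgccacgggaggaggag

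Of the 5 degradation genes 4 were below BRAF in each of the other groups, all but Derl3 in SMAD4KO_Braf and all but Herpud1 in the CDX2KO_Braf-labelled libraries, and none of these differences passed. Over all genes tested 51.8% lay below BRAF in SMAD4KO_Braf and 47.4% in the labelled libraries. Of 20 other degradation genes 17 were below BRAF in SMAD4KO_Braf, with a median of -0.20. In the labelled libraries 6 of those 20 were below and 14 above, with a median of 0.10. Edem1, which extracts misfolded glycoproteins from the folding cycle, had 53.7, 34.9 and 35.4 FPKM in BRAF, 36.6, 25.1 and 27.4 in SMAD4KO_Braf, and 25.7 and 21.8 in the CDX2KO_Braf-labelled libraries. Both labelled libraries lay below all BRAF libraries, and the difference was -0.75 ± 0.23 (adjusted p = 0.0792). It passed with quantile normalization (0.0425), library weights (0.0468), a replicate block (0.0254) and a term for Y-linked transcripts (0.0212), within a range of 0.0212 to 0.297 over the alternatives.

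Syvn1, the ubiquitin ligase of the pathway, had 88.4, 35.1 and 49.4 FPKM in BRAF, 54.3, 25.0 and 28.4 in SMAD4KO_Braf and 33.6 and 29.6 in the CDX2KO_Braf-labelled libraries. Sel1l, its partner, had 58.4, 29.1 and 36.0 in BRAF, 38.2, 27.1 and 25.3 in SMAD4KO_Braf and 27.1 and 24.9 in the labelled libraries. For Syvn1 and Sel1l the labelled libraries lay just under the lowest BRAF library, and BRAF library 0 stood far above the rest. Their differences there were -0.75 ± 0.43 (adjusted p = 0.303) and -0.58 ± 0.30 (0.244).

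Derl3, a channel-associated protein, was close to the detection limit at 2.27, 0.733 and 1.26 FPKM in BRAF, 2.63, 1.14 and 0.84 in SMAD4KO_Braf, and 0.522 and 0.308 in the CDX2KO_Braf-labelled libraries (-0.73 ± 0.36 against BRAF, adjusted p = 0.237). Herpud1, which recruits the ligase complex, went the other way, with 153, 65.3 and 139 FPKM in BRAF, 135, 79.6 and 67.3 in SMAD4KO_Braf, and 150.2 and 127 in the labelled libraries (0.30 ± 0.42, 0.667). The 4 degradation genes other than Herpud1, with the chaperone Canx and the Atf4 target Sesn2, made up the 6 genes whose labelled libraries lay entirely below BRAF, and Ern2 and Xbp1 the 2 that lay entirely above. Over all genes tested 48.4% did so in either direction.

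In the Atf4 arm no gene passed in any comparison. Atf4 had 139, 151 and 184 FPKM in BRAF, 154, 136 and 140 in SMAD4KO_Braf, and 195 and 146 in the CDX2KO_Braf-labelled libraries. These ranges overlapped, and the differences from BRAF were -0.13 ± 0.16 (adjusted p = 0.693) and 0.11 ± 0.18 (0.723). Asns, which makes asparagine, ranged from 37.3 to 64.0 FPKM, with differences from BRAF of -0.06 ± 0.18 and 0.18 ± 0.20 (0.886 and 0.594).

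Ddit3, the stress factor also called Chop, had 23.8, 11.7 and 17.6 FPKM in BRAF, 14.1, 8.93 and 10.6 in SMAD4KO_Braf and 15.1 and 7.75 in the CDX2KO_Braf-labelled libraries. Trib3, a pseudokinase induced by Chop and Atf4, had 9.16, 5.24 and 4.44 in BRAF, 5.01, 2.26 and 1.53 in SMAD4KO_Braf, and 8.59 and 2.92 in the labelled libraries. In SMAD4KO_Braf these 2 genes were the lowest of the arm relative to BRAF, at -0.59 ± 0.32 (adjusted p = 0.409) and -0.93 ± 0.45 (0.369), with overlapping libraries. Ppp1r15a, the phosphatase subunit that ends the phosphorylation of eIF2, had 5.44, 3.37 and 2.14 FPKM in BRAF, 2.86, 1.88 and 1.89 in SMAD4KO_Braf, and 4.03 and 3.22 in the CDX2KO_Braf-labelled libraries. Its labelled libraries lay above all of SMAD4KO_Braf, by 0.54 ± 0.30 (0.294).

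Sesn2, a stress-induced regulator of growth signalling, had 11.9, 5.49 and 11.6 FPKM in BRAF, 6.39, 9.51 and 6.99 in SMAD4KO_Braf, and 4.31 and 4.34 in the CDX2KO_Braf-labelled libraries. Both labelled libraries lay below the other 6, and the difference from BRAF was -0.94 ± 0.31 (adjusted p = 0.0966, 0.0123 to 0.456 over the alternatives). It passed without BRAF library 1 (-1.26, 0.0123) and with library weights (0.0156). Chac1, a glutathione-degrading enzyme, had 1.94, 1.25 and 2.07 FPKM in BRAF, 3.78, 1.11 and 1.76 in SMAD4KO_Braf and 5.85 and 0.706 in the CDX2KO_Braf-labelled libraries. The 8.28-fold distance between its highest and lowest library thus lay inside the labelled group.

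**Figure D3:**
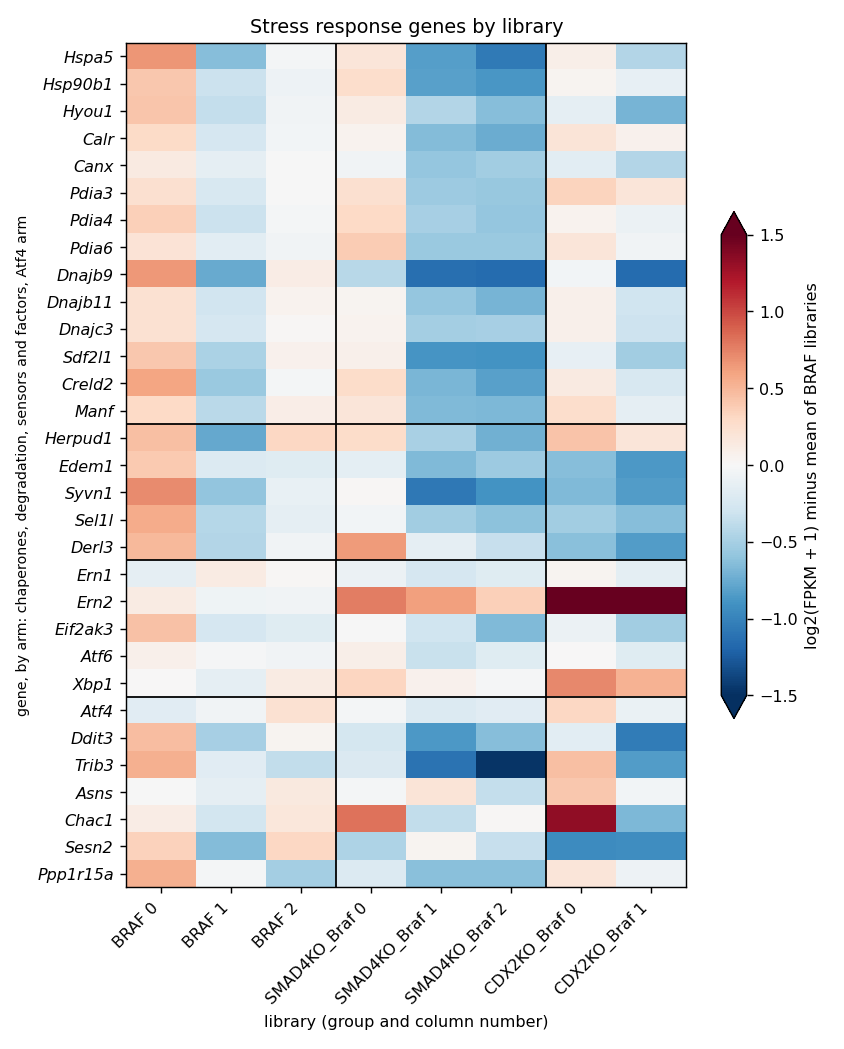
Each of the 31 genes (rows, by arm) in each library (columns), coloured by log2(FPKM + 1) minus the mean of the BRAF libraries. Colours end at 1.5 in both directions, which Ern2 exceeds in both libraries labelled CDX2KO_Braf, and the columns numbered 0 are redder than the others of their group in the chaperone and degradation rows.

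Setting the chaperone arm against the Atf4 arm gave no order of the groups. Each arm was summarised in a library by the median of its genes relative to the BRAF mean. That mean comes from the BRAF libraries themselves, which draws their values towards 0. The ranges within BRAF are thus not comparable with those of the other groups. The chaperone arm stood at 0.33, -0.32 and -0.02 in BRAF, 0.15, -0.62 and -0.69 in SMAD4KO_Braf and 0.07 and -0.27 in the CDX2KO_Braf-labelled libraries. The Atf4 arm stood at 0.34, -0.17 and 0.14 in BRAF, -0.21, -0.37 and -0.36 in SMAD4KO_Braf and 0.31 and -0.68 in the labelled libraries. The difference of the arms ran from -0.02 to -0.16 in BRAF. It was 0.36, -0.25 and -0.33 in SMAD4KO_Braf and -0.24 and 0.40 in the labelled libraries, so both groups held libraries on either side of 0. Between groups, the median difference of the Atf4 arm was -0.26 in SMAD4KO_Braf and 0.05 in the labelled libraries. The first of these was -0.50 without BRAF library 1, -0.10 without BRAF library 2 and -0.41 without SMAD4KO_Braf library 1. The second was -0.68 without CDX2KO_Braf library 0 and 0.31 without CDX2KO_Braf library 1, that is, it followed whichever library was kept, and it was -0.20 without BRAF library 2.

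**Figure D4:**
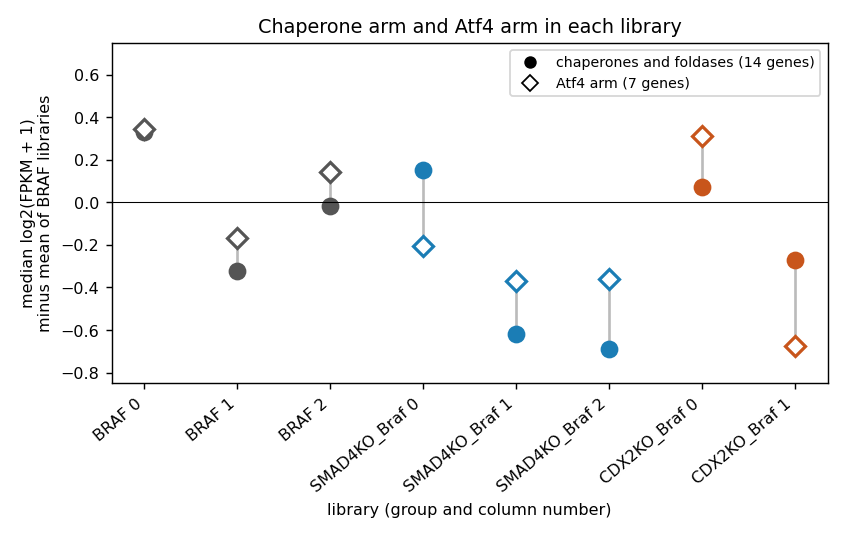
Median of the 14 chaperones and folding enzymes (filled circles) and of the 7 genes of the Atf4 arm (open diamonds) in each library, relative to the mean of the BRAF libraries, with a grey line joining the arms of a library. The filled circle of the library numbered 0 is the highest of its group in all 3 groups, from 0.07 to 0.33.

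The libraries numbered 0 had the highest chaperone levels of their group. In each of the 3 groups all 14 chaperones and all 5 degradation genes were highest in library 0. Over the 31 genes this held for 24 (77.4%), with 2 of 5 sensors and factors and 3 of 7 genes of the Atf4 arm, and it held for 11.0% of all genes tested. The summed FPKM of the 14 chaperones was 4088 in library 0 of BRAF against 2467 and 3073, 3514 in SMAD4KO_Braf against 1953 and 1846, and 3392 in the labelled group against 2817. The pattern was noticed after the values were seen and has no test, and no label ties the libraries numbered 0 to each other.

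Other values moved with it. Enterocyte markers were highest in library 0 of every group for 8 of 10 genes, with sums of 29899, 20705 and 8811 FPKM in the 3 libraries and 3927 to 16247 in the other 5. Markers of T and intraepithelial lymphocytes were so for 0 of 10, and their sum was lowest in library 0 of each group, at 33.7 against 171 and 994 in BRAF, 51.3 against 152 and 470 in SMAD4KO_Braf and 15.4 against 67.1 in the labelled group. The Y-linked Ddx3y had 18.0 and 17.4 FPKM in library 0 of BRAF and of SMAD4KO_Braf and at most 0.0156 in the other 6. The X-linked Xist had 0.0549 and 0.0592 in those 2 libraries and 68.0 to 109 in the other 6. The labelled group thus held no library with Y-linked transcripts. Heat shock genes of the cytosol were highest in library 0 of every group for 5 of 11, and aminoacyl-tRNA synthetases for 1 of 12. The part of these in the pattern was not tested. The relative depth of the libraries numbered 0 was 1, 0.706 and 1.29, with the second of these the lowest of its group. Leaving out these 3 libraries left labelled library 1 alone in its group, so that its spread was taken from the other groups. The difference of Ern2 from BRAF was then 2.17, and the chaperone median was -0.50 in SMAD4KO_Braf and -0.05 in that lone library.

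The libraries labelled CDX2KO_Braf and SMAD4KO_Braf were also compared directly. Of the 31 genes 1 rose, Ern2, and none fell, which is 3.23% of the list beside 11.6% of all genes. The median of the list was 0.24 and that of all genes 0.02. Above 0 were 6337 of the 12084 genes tested, and 103 of the 127 tested pathway genes outside the list, described below. Of the chaperones 13 of 14 were above 0 with a median of 0.31, and none passed. That median was 0.60 without SMAD4KO_Braf library 0, 0.20 without 1 and 0.15 without 2, and 0.14 without CDX2KO_Braf library 0 and 0.50 without 1. It was 0.49 with library weights and 0.55 with a term for Y-linked transcripts. With that term 3 chaperones passed, Calr (0.77, adjusted p = 0.03), Hsp90b1 (0.72, 0.0471) and Pdia3 (0.74, 0.0368). Over all genes it called 1138 higher and 737 lower, where the chosen fit called 797 and 605. The term marks library 0 of BRAF and of SMAD4KO_Braf only. Library 0 of the labelled group, also the higher of its group in chaperones, was thus left unadjusted. The labelled libraries lay entirely above SMAD4KO_Braf for 4 of the 31 genes (Ern2, Xbp1, Calr and Ppp1r15a) and entirely below for 2 (Derl3 and Sesn2), as 47.3% of all genes did in either direction.

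Genes of the same pathways outside the list were read from 7 further lists of 131 genes, of which 127 were tested. Against BRAF 12 rose and 3 fell in the CDX2KO_Braf-labelled libraries, which is 11.8% beside the 14.1% of all genes, and 0 passed in SMAD4KO_Braf. There 17 of the 127 had an unadjusted p under 0.05, which is 13.4% beside 15.1% of all genes, and 7 passed with library weights, 5.51% beside 8.85%. Without BRAF library 2 the 15 calls became 8, without CDX2KO_Braf library 0 they became 7, and without CDX2KO_Braf library 1 they became 6. Of 20 other folding enzymes 2 rose, of 23 genes of the translocon, signal peptidase and oligosaccharyl transferase 0, of 20 other degradation genes 2, of 22 other kinases, proteases and factors 3 with 2 falling, of 18 genes of amino acid synthesis and transport 3 with 1 falling, of 12 aminoacyl-tRNA synthetases 1, and of 12 stress and growth regulators 1.

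The genes that rose and kept their call without any single library were Prdx4, Ngly1, Creb3l1, Slc6a9 and Wars. Creb3l1, a membrane-bound factor released by the same proteases as Atf6, had 18.8, 27.3 and 21.9 FPKM in BRAF, 34.4, 38.7 and 37.7 in SMAD4KO_Braf and 65.2 and 59.8 in the CDX2KO_Braf-labelled libraries. As with Ern2, the groups did not overlap, and the rise against BRAF was 1.44 ± 0.16 (adjusted p = 0.00215). Against SMAD4KO_Braf it was 0.74 ± 0.16 (0.0259, ending without either labelled library at 0.163 and 0.114, without SMAD4KO_Braf library 0 at 0.0643, 1 at 0.051 or 2 at 0.0713, and without BRAF library 2 at 0.0517), and SMAD4KO_Braf against BRAF was 0.70 ± 0.14 (0.179, passing at 0.0285 with library weights).

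Prdx4, a peroxidase that helps to form disulfide bonds, had 24.3, 28.4 and 35.2 FPKM in BRAF and 76.9 and 81.7 in the CDX2KO_Braf-labelled libraries (1.42 ± 0.15, adjusted p = 0.0021). Ngly1, which strips sugars from proteins sent for degradation, had 21.9, 16.0 and 19.5 in BRAF and 56.4 and 44.99 in the labelled libraries (1.36 ± 0.19, 0.00491). Without all 3 libraries numbered 0, which left a lone labelled library, the calls of Prdx4, Creb3l1 and Ngly1 ended, with differences of 1.34, 1.26 and 1.30.

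Among known Atf4 targets, Slc6a9, a glycine transporter, showed the largest rise, from 8.02, 4.19 and 4.79 FPKM in BRAF and 15.03, 8.35 and 10.1 in SMAD4KO_Braf to 36.0 and 58.6 in the CDX2KO_Braf-labelled libraries (2.86 ± 0.33 against BRAF, adjusted p = 0.00272). Wars, which charges tRNA with tryptophan and is also known as an interferon target, had 80.3, 66.9 and 71.2 FPKM in BRAF and 160 and 183 in the labelled libraries (1.22 ± 0.14, 0.0027). Eif2ak2, an interferon-induced kinase of eIF2, rose by 0.96 ± 0.14 (0.00656, ending without CDX2KO_Braf library 0 at 0.057), while Eif2ak1, the kinase of eIF2 that senses haem, fell by 0.48 ± 0.11 (0.027). The call of Eif2ak1 ended without BRAF library 0 (0.0732) or 2 (0.0842), SMAD4KO_Braf library 2 (0.0507) or CDX2KO_Braf library 0 (0.175) or 1 (0.092).

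The direction was not shared by all Atf4 targets. Cth, which makes cysteine, fell from 33.6, 49.3 and 50.9 FPKM in BRAF to 15.1 and 10.2 in the CDX2KO_Braf-labelled libraries (-1.74 ± 0.33, adjusted p = 0.0163), a call that ended without BRAF library 2 (0.0528) or CDX2KO_Braf library 0 (0.055) or 1 (0.124). Gpt2, an alanine aminotransferase of mitochondria, rose by 1.36 ± 0.23 (0.011, ending without CDX2KO_Braf library 1 at 0.0765), as did Vldlr, a lipoprotein receptor, by 1.39 ± 0.23 (0.00869, ending without the same library at 0.0876). Pck2, the mitochondrial form of a gluconeogenic enzyme, rose by 0.84 ± 0.20 (0.0346), and its call ended without BRAF library 0 (0.0769) or 2 (0.0952) or CDX2KO_Braf library 0 (0.186) or 1 (0.132).

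Smaller changes completed the set of 15. Sil1, which renews the nucleotide of BiP, rose by 0.55 ± 0.13 (adjusted p = 0.0303), Erlec1, a lectin of degradation, by 0.43 ± 0.10 (0.0329) and Creb3l4, a relative of Creb3l1, by 0.93 ± 0.22 (0.0334). Wfs1, a membrane protein of the endoplasmic reticulum named here after its values were seen, fell by 0.83 ± 0.21 (0.0413). These 4 calls all ended without BRAF library 0 (0.0655 to 0.0939) or 2 (0.0576 to 0.0995), SMAD4KO_Braf library 2 (0.0533 to 0.0652), CDX2KO_Braf library 0 (0.114 to 0.203) or 1 (0.12 to 0.176), and those of Sil1 (0.0502) and Erlec1 (0.0815) also without BRAF library 1.

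**Figure D5:**
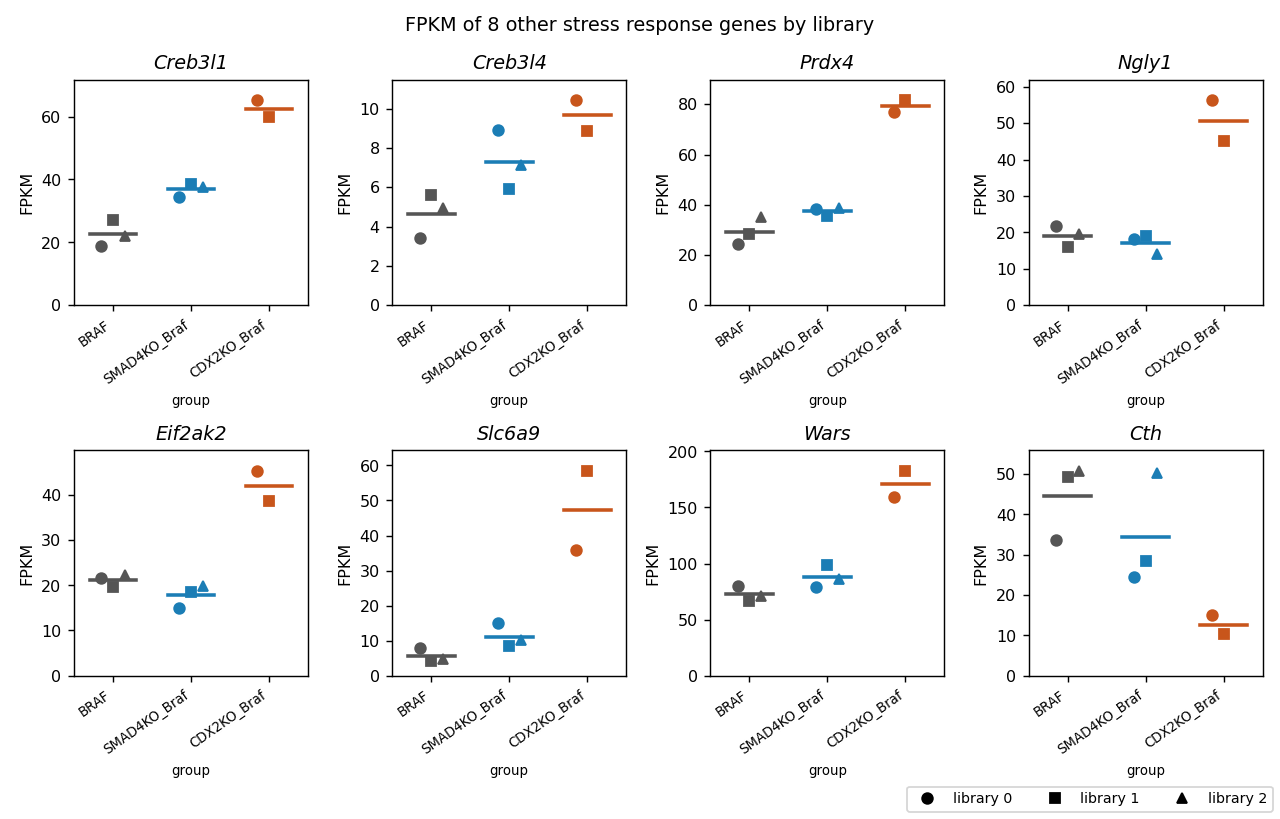
FPKM (vertical axes, from 0) of 8 pathway genes outside the list of 31 in each library, with a line at each group's mean. In 7 of the panels the libraries labelled CDX2KO_Braf lie above the BRAF libraries, as with Creb3l1 at 65.2 and 59.8, and in the panel of Cth they lie below, at 15.1 and 10.2.

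Of the genes in these 7 lists 13 rose and 2 fell in the CDX2KO_Braf-labelled libraries against SMAD4KO_Braf, which is 11.8% beside 11.6% of all genes and so near the background. These 15 calls became 9 without BRAF library 2, 6 without SMAD4KO_Braf library 2, 5 without CDX2KO_Braf library 0 and 2 without CDX2KO_Braf library 1. Atf3, a stress factor downstream of Atf4, stood out here, with 13.7, 12.5 and 4.78 FPKM in BRAF, 1.95, 2.74 and 2.22 in SMAD4KO_Braf and 14.2 and 8.36 in the labelled libraries. SMAD4KO_Braf lay below both other groups, by 1.86 ± 0.41 against the labelled libraries (adjusted p = 0.0316, ending without SMAD4KO_Braf library 0 at 0.0761, 1 at 0.0574 or 2 at 0.0817, or without CDX2KO_Braf library 0 at 0.201 or 1 at 0.0935). Against BRAF its -1.67 ± 0.37 did not pass (0.179).

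Beside these, 2 lists of other stress genes were read. None of 11 tested heat shock genes of the cytosol passed in any comparison, with medians of -0.38 in SMAD4KO_Braf and -0.15 in the CDX2KO_Braf-labelled libraries against BRAF. Hspa1a, the inducible Hsp70, ranged from 0.0465 FPKM in SMAD4KO_Braf library 2 to 12.3 in BRAF library 0. Of 10 immediate early genes, which respond quickly to growth signals, all 10 were below 0 in SMAD4KO_Braf with a median of -0.66. Of them 4 had an unadjusted p under 0.05 and 0 passed. Over all genes 51.8% lay below 0 in this comparison and 15.1% had such an unadjusted p. In the CDX2KO_Braf-labelled libraries Ier3 rose by 0.89 ± 0.23 (adjusted p = 0.0435) and Zfp36, which destabilises messenger RNA of immune signals, fell by 0.68 ± 0.17 (0.0404). Both calls ended without BRAF library 1 (0.102 and 0.0962), any library of SMAD4KO_Braf (0.0501 to 0.0671) or either labelled library (0.166 to 0.198), that of Ier3 also without BRAF library 2 (0.111) and that of Zfp36 without BRAF library 0 (0.0922).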

How the data were processed

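The authors deposited FPKM in 1 table of 23951 gene symbols. Per the submitters' processing notes, single-end reads of 50 bp went through TopHat2 2.1.0 on mm9, and both Cuffnorm 2.2.1 and Cuffdiff 2.2.1 were used, with no word on which of them wrote the table. Columns count from 0 and sample titles from 1, so columns were tied to groups only, and 3 further columns of values were not used. Genes had to reach 1 FPKM in 2 or more of the 8 libraries, which left 12084. They were fitted as log2(FPKM + 1) in 1 model of 3 groups with a mean-variance trend (limma 3.58.1, R 4.3.3), two-sided, with Benjamini-Hochberg adjustment per comparison. The fit was also run on simulated data with known changes and independent noise. Those data held no shift shared by the genes of a library, so they cannot check the calls against such shifts. Without counts, precision was judged from replicate libraries alone. Crypts were freed with 3 mM EDTA and passed through a 70 micron filter, per the labels' protocols. Promoters came from RefSeq (GRCm38.p6). All 31 genes, Smad4, Cdx2, Braf and up to 4 genes per further list with the smallest adjusted p against BRAF are named, and Wfs1 and the cell markers were named after their values were seen. The list of other degradation genes also held Fam20c, a kinase of the secretory pathway. Members and lists were chosen with earlier results of these data known. The 19 alternatives changed the pseudocount (0.1), the filter (none, or 5 FPKM), the scaling (median ratio or quantile), the libraries fitted (2 groups alone, or each library left out), the trend (none), the weights (by library) or the replicate block. After seeing the data, leaving out the libraries numbered 0 and a term for Y-linked transcripts were added. Leaving out either labelled library, or the libraries numbered 0, left a lone CDX2KO_Braf library. The adjusted p-values of such fits rest on the spread within the other groups.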

Additional observations from a re-analysis of the deposited data

How the results depend on the processing

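With library weights the genes of the list that passed numbered 1 in SMAD4KO_Braf against BRAF (Ern2), 4 in CDX2KO_Braf against BRAF (Ern2, Xbp1, Edem1 and Sesn2) and 2 in CDX2KO_Braf against SMAD4KO_Braf (Ern2 and Xbp1), and the other pathway genes 7 and 27 in the first and the last of these. Over all genes that setting called 414 higher and 655 lower in SMAD4KO_Braf against BRAF, where the chosen fit called 3 and 6, 1321 and 1281 in CDX2KO_Braf against BRAF, where it called 833 and 871, and 1400 and 1047 in CDX2KO_Braf against SMAD4KO_Braf, where it called 797 and 605. In CDX2KO_Braf against BRAF 1 gene of the list passed with no filter and with only the 2 groups compared. Without the libraries numbered 0, CDX2KO_Braf library 1 stood alone in its group and Xbp1 no longer passed. Fewer of the other pathway genes and of all genes then passed in both comparisons of CDX2KO_Braf. The Atf4 arm median in CDX2KO_Braf against BRAF was then -0.57. With a term for Y-linked transcripts 4 genes of the list passed in CDX2KO_Braf against SMAD4KO_Braf, beside 1138 higher and 737 lower over all genes. With that term all genes called in SMAD4KO_Braf against BRAF numbered 11 higher and 67 lower, and Hspa5 in CDX2KO_Braf against BRAF turned to 0.18. Xbp1 in SMAD4KO_Braf against BRAF turned to -0.034 with library weights. With only the 2 groups compared 8 other pathway genes passed in CDX2KO_Braf against SMAD4KO_Braf.

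Leaving out each library in turn, the genes of the list that passed in CDX2KO_Braf against BRAF numbered 1 to 2, the other pathway genes 6 to 18, and the latter 2 to 13 in CDX2KO_Braf against SMAD4KO_Braf. The Atf4 arm median in CDX2KO_Braf against BRAF ran from -0.68 to 0.31, and Hspa5 from -0.50 to 0.15. Without CDX2KO_Braf library 0 the comparison with BRAF called 264 genes higher and 321 lower, and without library 1 it called 167 and 242, with 229 and 170 or 124 and 110 against SMAD4KO_Braf, where a lone library is assumed to vary like the other groups. In SMAD4KO_Braf against BRAF leaving out a library called 2 to 7 genes higher and 2 to 18 lower. Ern2 passed in both comparisons of CDX2KO_Braf under all 19 alternatives, some of which left a lone CDX2KO_Braf library. Same-numbered libraries deviated from their group means with correlations from -0.11 to 0.24, the highest between library 0 of BRAF and of SMAD4KO_Braf. With means of 2 or 3 libraries this cannot decide whether the numbers pair the samples. With the number as a replicate block the list had 2 calls in CDX2KO_Braf against BRAF (Ern2 and Edem1), all genes 481 higher and 700 lower (413 and 392 in CDX2KO_Braf against SMAD4KO_Braf), and the other pathway genes 6 in CDX2KO_Braf against SMAD4KO_Braf. Depth is known only in relative terms, and the standard errors of the 31 genes, 0.11 to 0.52 in SMAD4KO_Braf against BRAF with a median of 0.27 against 0.17 over all genes, limit what could be seen. The causes of these shifts were not tested.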
